A study of Homo sapiens with 3 samples.

Results

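The 10 tubulin genes described here encode alpha tubulin (TUBA1A, TUBA1B, TUBA1C and TUBA4A) and beta tubulin (TUBB, TUBB2A, TUBB2B, TUBB3, TUBB4B and TUBB6). They were taken by RefSeq transcript identifier, namely NM_006009, NM_006082, NM_032704 and NM_006000 for the 4 alpha genes and NM_178014, NM_001069, NM_178012, NM_006086, NM_006088 and NM_032525 for the 6 beta genes. The identifiers were chosen by the family and by the RPKM values of these same samples, so their levels and differences are a description and carry no test. They are 10 of 25443 transcripts with a value in at least 1 sample, and all 10 had a value in every sample.

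The study asked what the flame retardant decabromodiphenyl ether (BDE-209) does to gene expression in HEK293T cells, derived from human embryonic kidney and expressing the large T antigen of SV40. The sample titles name the line HEK293, without the T. Cells were kept for 48 h with 1 µM BDE-209 and 1 mM DMSO, with 1 mM DMSO alone, or in normal medium free of both (the negative control, here the control). Each condition had 1 sample of polyA RNA, so no difference has a replicate check, and a difference between cultures cannot be told apart from an effect of the medium. The treatment label of the control can also be read as BDE-209 without DMSO, and the treatment protocol, followed here, gives it as free of both. The DMSO sample separates the solvent from BDE-209, since the BDE-209 sample also contained DMSO.

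Alpha and beta tubulin form the heterodimer from which microtubules are built, and a cell makes both in near-equal protein amounts. The isotypes of a class are nearly the same over most of their length and differ mainly in the acidic carboxy-terminal tail, where tubulin is modified and where associated proteins bind. Tubulin mRNAs are known to be controlled by autoregulation, in which free tubulin dimers lead to decay of tubulin mRNA on the ribosome. The start of the nascent tubulin chain is read by TTC5 in that process.

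The samples were well matched in depth. The RPKM values (reads scaled to the length of the transcript and to the mapped reads of the library) rise in steps of 1 read, which gave totals of 4843622 reads for the control, 4782042 for DMSO and 4676791 for BDE-209. These are the totals to which the values were scaled, at 75.01% to 77.20% of the uniquely mapped reads tabulated for the libraries, where BDE-209 and DMSO stand in the opposite order. Scaling to that table in place of the recovered totals would move every log2 ratio by -0.04 between BDE-209 and DMSO, by 0.04 between DMSO and the control and by 0.0022 between BDE-209 and the control. Between 23089 and 23200 transcripts were listed per sample. The line was checked by markers: NEFM was at 49.8 to 54.1 RPKM, NEFL at 24.4 to 27.9 and LHX1 at 0.914 to 1.43, while PAX2 was not listed. Of 4 genes of other cells, PTPRC and INS were not listed, ALB had 1 read in each sample, and COL1A1 was at 4.44 to 5.19 RPKM. How reads shared by isoforms were handled is not known, so a gene that is not listed is not shown to be absent. Among 795 transcripts with a mean of at least 100 RPKM, the 95% counting interval of the log2 ratio lay below 0 for 79 and above 0 for 35 between BDE-209 and DMSO. These counts were 93 and 93 between DMSO and the control, and 139 and 74 between BDE-209 and the control. The counting interval covers counting error only, and samples of 1 culture each differed in this way at many well-covered transcripts.

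The sequences decide how far a read of 49 bases can be given to a single tubulin gene, since the authors kept uniquely mapped reads. TUBA1B lies at chr12:49521565-49525178 on the minus strand in hg19, TUBA1A at chr12:49578578-49582863 on the minus strand and TUBA1C at chr12:49658865-49668383 on the plus strand. All 10 genes have 4 exons in their GENCODE transcript. Over the compared reading frame (all but the tail), TUBA1A and TUBA1B were 97.1% identical and TUBA1B and TUBA1C 98.1%, with a longest identical run of 326 bases in the latter pair. TUBA4A was 85.4% to 86.7% identical to the other 3.

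TUBB2A (chr6:3153900-3157778, minus strand) and TUBB2B (chr6:3224511-3227887, minus strand) are the other close pair, at 98.2% identity and with an identical run of 666 bases. Within the last coding exon, leaving out the tail, their most different 49-base window has 3 differing bases. It lies at coding positions 561 to 609, counted from 1 at the start codon, and is the best case only within that searched part. Of the windows not wholly in coding sequence, 100% occurred at 1 place in the genome for both genes. Of the coding windows this held for 14.3% in TUBB2A and 11.5% in TUBB2B. Capitals mark the bases that differ from TUBB2A.
TUBB2A, chr6:3154826-3154874, minus strand: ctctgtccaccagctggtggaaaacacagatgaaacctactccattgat
TUBB2B, chr6:3225714-3225762, minus strand: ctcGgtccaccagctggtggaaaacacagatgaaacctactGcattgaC

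The share of 49-base windows of the transcript that lie within 1 exon and occur at 1 place in the genome was lowest for TUBB2A (28.4%), TUBA1B (31.3%), TUBB2B (38.3%) and TUBA1A (44.3%). It was 68.8% for TUBA1C, 72.7% for TUBB, 79.0% for TUBB4B, 81.7% for TUBB3, 87.1% for TUBA4A and 90.9% for TUBB6. The windows of TUBA1B were found in another of the 10 transcripts in 57.1% of cases and those of TUBB2A in 59.7%, while none of TUBB or TUBA4A were. RefSeq also names 55 alpha and beta tubulin pseudogenes, which can hold further copies. If only uniquely mapped reads were counted, as the authors describe, a read from a shared window entered no level. The levels of TUBA1A, TUBA1B, TUBA1C, TUBB2A and TUBB2B would then rest on the parts of their transcripts that can be told apart. Which reads the RPKM totals count is not stated. The windows were matched exactly, whereas the authors allowed mismatches. The windows of a gene are the same in all 3 samples, so its level is compared with itself over the same bases.

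**Figure D1:**
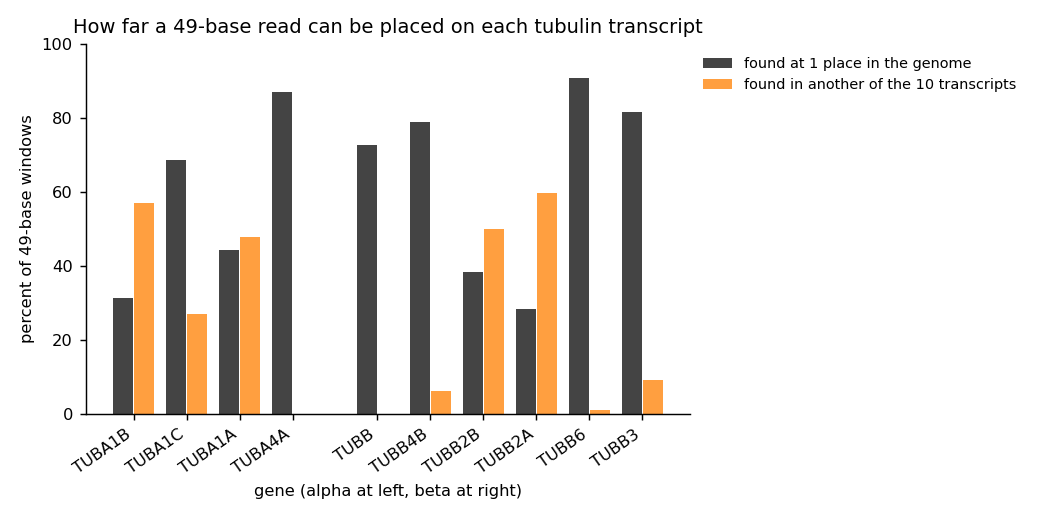
Dark bars give the percent of the 49-base windows of each GENCODE transcript that lie within 1 exon and occur at 1 place in GRCh37. Orange bars give the percent found in another of the 10 tubulin transcripts, and also count windows across exon joins. TUBA1B, TUBB2A and TUBB2B have more shared than singly placed windows, whereas TUBB6 reaches 90.9% singly placed. TUBA1A is near even, at 47.7% shared and 44.3% singly placed.

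The ends of the beta reading frames are shown for 4 isotypes because they differ there, and capitals mark the stop codon.
TUBB, chr6:30692112-30692174, plus strand: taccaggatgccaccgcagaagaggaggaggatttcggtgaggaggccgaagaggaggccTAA
TUBB4B, chr9:140137946-140138008, plus strand: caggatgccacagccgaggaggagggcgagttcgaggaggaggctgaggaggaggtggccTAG
TUBB3, chr16:90002150-90002212, plus strand: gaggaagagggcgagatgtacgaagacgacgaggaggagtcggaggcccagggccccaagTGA
TUBB6, chr18:12326067-12326129, plus strand: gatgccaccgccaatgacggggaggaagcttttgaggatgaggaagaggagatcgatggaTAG
The repeated gag codons, with some gaa codons outside TUBB4B, encode the glutamates of the acidic tail.

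Among the alpha isotypes, TUBA1B was the most abundant, TUBA1C the next and TUBA1A the lowest of the close trio, in every sample. TUBA1B and TUBA1C, both widely expressed in dividing cells, were lower with BDE-209 than with DMSO, with differences of -6.74% and -8.06%. For TUBA1A, the main alpha isotype of developing neurons, the difference was -5.11%. TUBA4A, an isotype of differentiated tissues such as platelets and muscle, was near the detection limit. In RNA of whole cultures, a change in the make-up of the cells and a change in RNA per cell cannot be told apart.

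TUBA1B had 1204 RPKM in the control (exact 95% Poisson interval of the reads 1181 to 1228), 1231 with DMSO (1207 to 1255) and 1148 with BDE-209 (1125 to 1171). The BDE-209 sample was the lowest, and its interval overlapped neither of the others. The log2 ratio was -0.10 between BDE-209 and DMSO (95% Clopper-Pearson interval -0.141 to -0.0604), 0.03 between DMSO and the control (-0.00828 to 0.0705, but 0.0333 to 0.112 at the tabulated totals) and -0.07 between BDE-209 and the control (-0.110 to -0.0292).

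TUBA1C had 821 RPKM in the control, 823 with DMSO and 757 with BDE-209. The control and DMSO samples were within counting error of each other and BDE-209 lay below both. The log2 ratio was -0.12 between BDE-209 and DMSO (-0.174 to -0.0688) and -0.12 between BDE-209 and the control (-0.170 to -0.0653). Between DMSO and the control it was 0.0037 (-0.0471 to 0.0545).

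TUBA1A had 291 RPKM in the control, 286 with DMSO and 271 with BDE-209, from 2128 to 2363 reads. Its log2 ratio between BDE-209 and DMSO was -0.08 with an interval that holds 0 (-0.161 to 0.0101), whereas at the tabulated totals it leaves out 0 (-0.201 to -0.0293). Between BDE-209 and the control it was -0.10 (-0.186 to -0.0154).

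TUBA4A had 2.73 RPKM in the control, 1.80 with DMSO and 3.11 with BDE-209, which are 20, 13 and 22 reads. It had the widest spread of the 10 genes, 1.73-fold between the lowest and the highest sample. Its log2 ratio without a pseudocount was 0.79 between BDE-209 and DMSO, and the interval ran from -0.262 to 1.90, so neither its sign nor its size is set at this depth.

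**Figure D2:**
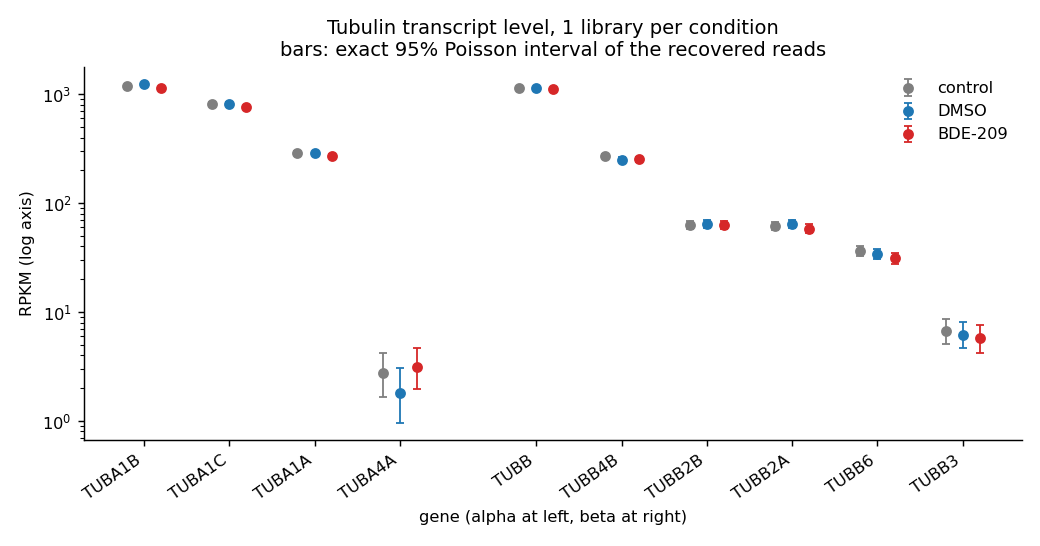
RPKM (log axis) of each tubulin gene in the control, DMSO and BDE-209 samples, with exact 95% Poisson intervals of the recovered reads. TUBA1B and TUBB lie at 1114 to 1231 RPKM and TUBA4A at 1.80 to 3.11, and the 3 samples of a gene lie close together beside the distance between genes.

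Among the beta isotypes, TUBB was the most abundant and stood just below TUBA1B in each sample, TUBB4B was at 0.221 to 0.240 of TUBB, and the remaining 4 made up a small part. Between BDE-209 and DMSO every counting interval of a beta gene held 0 at the totals of the RPKM values. TUBB4B was lower with DMSO than in the control, with a difference of -7.73%, and was at a like level with BDE-209, but this call does not hold at the tabulated totals.

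TUBB, the class I isotype found in nearly all dividing cells (chr6:30688129-30693199, plus strand), had 1136 RPKM in the control, 1136 with DMSO and 1114 with BDE-209, from at least 8163, 8059 and 7727 reads. Its log2 ratio was -0.03 between BDE-209 and DMSO (-0.0738 to 0.0166, but -0.113 to -0.0228 at the tabulated totals) and -3.8e-05 between DMSO and the control (-0.0446 to 0.0445). As deposited, the control and DMSO samples were level and BDE-209 lay within counting error of both.

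TUBB4B, the class IVb isotype and a major tubulin of cilia, had 273 RPKM in the control, 251 with DMSO and 252 with BDE-209. The control sample stood above both DMSO-containing samples. The log2 ratio was -0.12 between DMSO and the control (-0.206 to -0.0260, but -0.165 to 0.0155 at the tabulated totals), -0.11 between BDE-209 and the control (-0.204 to -0.0232) and 0.0024 between BDE-209 and DMSO (-0.0903 to 0.0951).

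TUBB2A and TUBB2B, the class II isotypes that are high in neurons, were at like RPKM levels. Divided by the share of the transcript that can be placed, TUBB2A stood above TUBB2B, at 206 to 226 against 165 to 167 over the 3 samples. TUBB2A had 61.5 RPKM in the control, 64.2 with DMSO and 58.4 with BDE-209, and TUBB2B had 63.3, 64.1 and 63.1 in the same order. Every interval of these genes between samples held 0, with a log2 ratio between BDE-209 and DMSO of -0.14 for TUBB2A (-0.325 to 0.0509) and -0.02 for TUBB2B (-0.187 to 0.142).

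TUBB6, the class V isotype, had 36.4 RPKM in the control, 34.2 with DMSO and 31.2 with BDE-209. TUBB3, the class III isotype used as a marker of neurons, had 6.67, 6.18 and 5.72 RPKM in that order, from 58, 53 and 48 reads. Both were highest in the control and lowest with BDE-209, and the interval of their log2 ratio between BDE-209 and the control held 0, at -0.22 for TUBB6 (-0.461 to 0.0153) and -0.22 for TUBB3 (-0.805 to 0.354). TUBB3 was the only one of the 10 genes with a second listed transcript, NM_001197181, at 6.13 RPKM in the control, 5.87 with DMSO and 5.54 with BDE-209.

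In order of the mean over the samples, TUBA1B (1194 RPKM) was followed by TUBB (1129), TUBA1C (800.0), TUBA1A (283), TUBB4B (259), TUBB2B (63.5), TUBB2A (61.4), TUBB6 (33.9), TUBB3 (6.19) and TUBA4A (2.54). TUBA1B and TUBB ranked 58 and 63 among all transcripts. Poisson intervals of neighbours overlapped in every sample for TUBB2B and TUBB2A. They overlapped in the BDE-209 sample for TUBA1B and TUBB and for TUBB3 and TUBA4A, and in the control and BDE-209 samples for TUBA1A and TUBB4B. Other neighbours in this order did not overlap in any sample. The order across genes also depends on the share of each transcript that could be placed, which was tried as an alternative measure.

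Over the 10 genes, 8 were lower and 2 higher with BDE-209 than with DMSO, with a median log2 ratio (0.5 RPKM added) of -0.09. The median was -0.0047 over the 8060 transcripts with a mean of at least 10 RPKM, of which 51.7% were lower. Of the 8 tubulin genes above that mean, 7 were lower. No tubulin gene reached a 2-fold change, against 1.74% of all 24608 transcripts listed in either sample and 0.0372% of those with a mean of at least 10 RPKM. The counting interval lay below 0 for TUBA1B and TUBA1C and above 0 for none of the 10. At the tabulated totals it left out 0 for 4 genes, with TUBA1A and TUBB added, and no share over all transcripts was taken there. At the totals of the RPKM values an interval below 0 was found for 2.13% of all transcripts. It was found for 9.94% of those with a mean of at least 100 RPKM, a level that 5 tubulin genes reach (TUBA1A, TUBA1B, TUBA1C, TUBB and TUBB4B). Among these 795 transcripts the ratio of TUBA1C stood at percentile 5.79, TUBA1B at 9.69, TUBA1A at 18.6, TUBB at 43.9 and TUBB4B at 60.1, and the 5% to 95% range of the log2 ratios ran from -0.13 to 0.09. The share of 9.94% was not matched in depth to the tubulin genes. Intervals narrow with more reads, and TUBA1B and TUBA1C, at ranks 58 and 87 by mean, lie far above 100 RPKM.

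Between DMSO and the control, 6 tubulin genes were lower and 4 higher, with a median log2 ratio of -0.01. Of the 8 above 10 RPKM, 4 were lower, beside 48.5% of all transcripts at that level. None reached a 2-fold change, against 1.57% of all transcripts and 0.0868% of those with a mean of at least 10 RPKM. At the tabulated totals 4 were lower. The counting interval lay below 0 for TUBB4B alone among the 10, against 2.65% of all transcripts and 11.7% of those with a mean of at least 100 RPKM. TUBB4B stood at percentile 10.3 of the latter. The share of 11.7% was not matched to TUBB4B in depth. At the tabulated totals, where no such share was taken, the interval left out 0 for TUBA1B alone, above 0.

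Between BDE-209 and the control, 9 genes were lower and TUBA4A was higher, with a median log2 ratio of -0.09. All 8 above 10 RPKM were lower, beside 49.8% of all transcripts at that level. None reached a 2-fold change, against 1.5% of all transcripts and 0.0620% of those with a mean of at least 10 RPKM. The counting interval lay below 0 for TUBA1A, TUBA1B, TUBA1C and TUBB4B, 4 of the 5 genes above 100 RPKM, against 2.9% of all transcripts and 17.5% of those with a mean of at least 100 RPKM. Their percentiles among the latter were 18.9, 29.6, 13.7 and 14.6, so none lay below the 5% end of that range. The share of 17.5% was not matched in depth to these genes either. The 3 comparisons share samples and are not independent of each other.

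**Figure D3:**
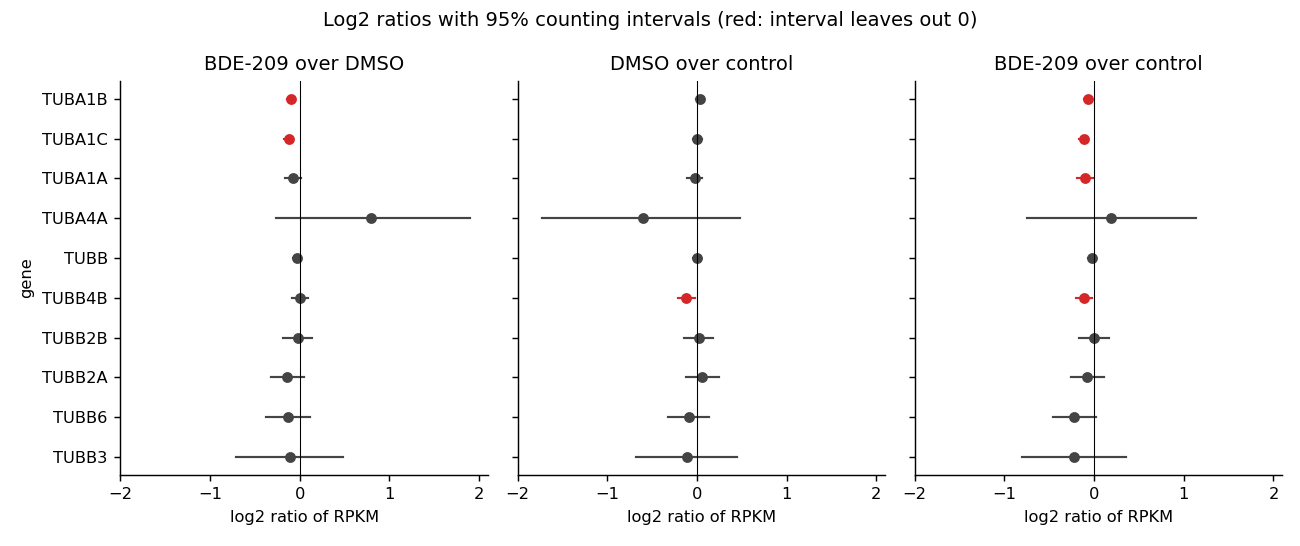
Log2 ratio of RPKM for each tubulin gene in the 3 pairs of samples, with 95% counting intervals at the totals of the RPKM values. Intervals that leave out 0 are in red, which are TUBA1B and TUBA1C for BDE-209 over DMSO, TUBB4B for DMSO over control, and TUBA1B, TUBA1C, TUBA1A and TUBB4B for BDE-209 over control.

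Summed by class, alpha tubulin had 2319 RPKM in the control, 2341 with DMSO and 2179 with BDE-209, and beta tubulin had 1577, 1557 and 1524. The alpha sum was lower with BDE-209 than with DMSO, with a difference of -6.94% (log2 ratio -0.10, interval -0.134 to -0.0740). For the beta sum the difference was -2.06%, with an interval that held 0 (log2 ratio -0.03, -0.0679 to 0.00784). At the tabulated totals these log2 ratios were -0.14 and -0.07, and both intervals leave out 0. All 10 genes together held 0.729% of the summed RPKM in the control, 0.736% with DMSO and 0.705% with BDE-209.

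The ratio of alpha to beta was 1.47 in the control (95% interval 1.437 to 1.505), 1.504 with DMSO (1.47 to 1.54) and 1.43 with BDE-209 (1.40 to 1.46). Within the library it was therefore lower with BDE-209 than with DMSO, with a difference of -4.98% (log2 difference -0.07, interval -0.122 to -0.0255), a value that no scaling of a whole library can move. The interval covers counting error only, not a difference between cultures, and no share of like ratios of other genes was taken beside it. The control lay between, and its difference from BDE-209 held 0 (-0.04, -0.0891 to 0.00690), as did that between DMSO and the control (0.03, -0.0146 to 0.0798). TUBA1B and TUBB are the largest parts of the alpha and beta sums, so their ratio is not a separate result. TUBA1B over TUBB, the ratio of the main isotypes, was 1.06 in the control, 1.08 with DMSO and 1.03 with BDE-209. Its log2 difference between BDE-209 and DMSO was -0.07 (-0.132 to -0.0117). Per window that can be placed, the ratio was 2.39 to 2.51, so its size is not set by these data.

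The isotype make-up of alpha tubulin was nearly the same in the 3 samples. TUBA1B made up 51.9% of the alpha sum in the control, 52.6% with DMSO and 52.7% with BDE-209. TUBA1C made up 35.4%, 35.1% and 34.7%, TUBA1A 12.5%, 12.2% and 12.5%, and TUBA4A 0.118%, 0.0767% and 0.143%. The ratios TUBA1B over TUBA1A, TUBA1C over TUBA1A and TUBA1B over TUBA1C differed between samples by -3.11% to 3.96%, and all 9 intervals held 0.

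In beta tubulin, TUBB made up 72.1% of the sum in the control, 73.0% with DMSO and 73.1% with BDE-209, and TUBB4B made up 17.3%, 16.2% and 16.5%. TUBB4B over TUBB was 0.240 in the control, 0.221 with DMSO and 0.226 with BDE-209, and its log2 difference between DMSO and the control was -0.12 (-0.216 to -0.0163). Between BDE-209 and the control that difference held 0 (-0.09, -0.186 to 0.0154). No share of like ratios of other genes was taken here either. TUBB2B made up 4.01%, 4.12% and 4.14%, TUBB2A 3.90%, 4.13% and 3.83%, TUBB6 2.31%, 2.19% and 2.05%, and TUBB3 0.423%, 0.397% and 0.375%. The ratio of each of these 4 to TUBB had an interval that held 0 in every pair of samples, with TUBB6 over TUBB (-0.19, -0.431 to 0.0437) and TUBB3 over TUBB (-0.19, -0.747 to 0.360) the lowest, both between BDE-209 and the control.

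**Figure D4:**
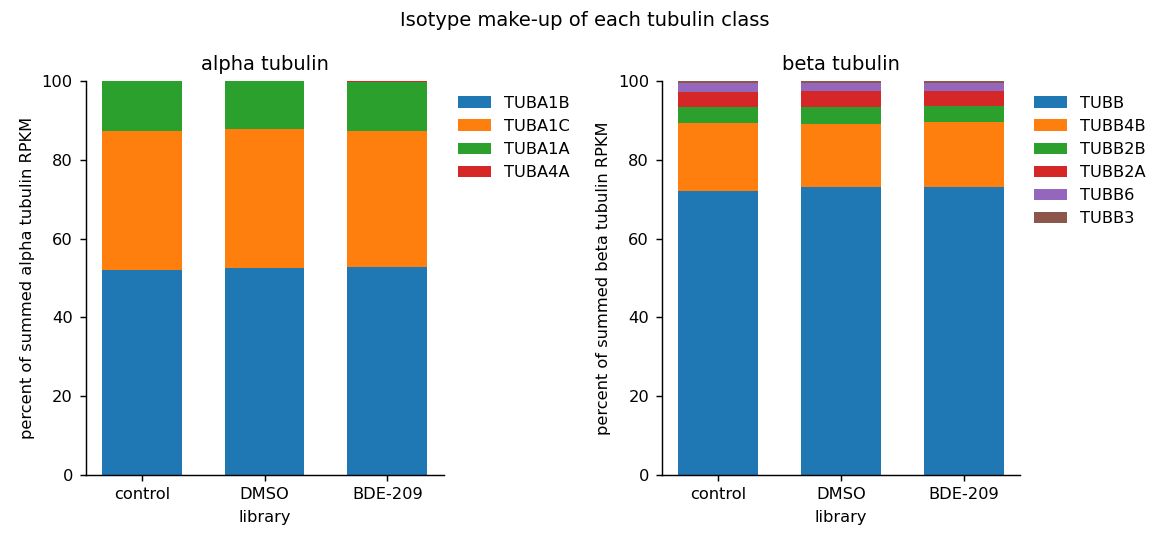
Percent of the summed alpha tubulin RPKM (left) and beta tubulin RPKM (right) taken by each isotype in the control, DMSO and BDE-209 samples. TUBA1B holds 51.9% to 52.7% of alpha and TUBB 72.1% to 73.1% of beta.

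The isotype shares across genes moved when each level was divided by the share of its transcript that can be placed. For this TUBA1C and TUBA4A were shortened at the end to the 1581 and 1514 bases recovered from their values, where that share was 44.5% and 82.4%. TUBA1B then made up 60.5% to 61.2% of alpha and TUBA1C 28.4% to 29.1%. In beta, TUBB made up 66.8% to 67.7%, and TUBB2A made up 9.10% to 9.76% in place of 3.83% to 4.13%, above TUBB2B at 7.07% to 7.28%. The ratio of alpha to beta became 2.72 in the control, 2.77 with DMSO and 2.64 with BDE-209. With TUBA1C and TUBA4A at their whole annotated length, TUBA1B made up 67.5% to 68.1% of alpha and TUBA1C 20.5% to 21.0%, and the ratio of alpha to beta was 2.38 to 2.49. The order of the samples in this ratio was the same in each measure. These measures multiply the same values by a factor per gene that is equal in all samples, so they could hardly change that order. The size of the alpha to beta ratio is not set by these data.

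The start of the nascent chain, which is read in autoregulation, is encoded by the first codons of the reading frame. These are shown here with the start codon in capitals.
TUBA1B: ATGcgtgagtgc
TUBA4A: ATGcgtgaatgc
TUBB: ATGagggaaatc
TUBB2A: ATGcgcgagatc
TUBB2B: ATGcgtgagatc
TUBB3: ATGagggagatc
TUBA1A and TUBA1C have the start of TUBA1B, TUBB4B that of TUBB, and TUBB6 that of TUBB3. All 10 genes thus hold arginine, cgt, cgc or agg, and glutamate, gag or gaa, after the start codon, followed by cysteine in alpha and isoleucine in beta. TTC5, the reader of this start, had 11.9 RPKM in the control, 12.8 with DMSO and 12.6 with BDE-209, and no interval between samples left out 0.

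The other genes of the microtubule system were taken as 5 lists of 64 genes, of which 63 were listed in at least 1 sample, each by its most abundant transcript. None of the 63 reached a 2-fold change in any pair of samples. Of the 40 with a mean of at least 10 RPKM, the counting interval left out 0 for 3 between BDE-209 and DMSO, 8 between DMSO and the control and 7 between BDE-209 and the control, beside 7.32%, 11.6% and 12.5% of all transcripts at that level. Of the other tubulin genes, 11 of 12 were listed, with 5 higher and 6 lower with BDE-209 than with DMSO and a median log2 ratio of -0.06. TUBG1, the gamma tubulin that nucleates microtubules, had 124 RPKM in the control, 123 with DMSO and 110 with BDE-209. Its log2 ratio of -0.16 between BDE-209 and DMSO had a counting interval that left out 0. TUBG2, a second gamma tubulin, had 46.3, 43.7 and 42.0 RPKM and TUBB4A, a brain beta isotype, had 36.5, 35.6 and 33.1, with intervals that held 0 in each pair.

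The tubulin folding cofactors bind and join alpha and beta tubulin after the chaperonin, and their list here also holds TTC5, the reader named above, and TBCEL. All 8 genes of this list were listed, with 3 higher and 5 lower between BDE-209 and DMSO and a median of -0.0081. TBCA, which holds beta tubulin, had 233 RPKM in the control, 225 with DMSO and 231 with BDE-209. TBCE and TBCB, which handle alpha tubulin, had 38.1, 42.6 and 40.1 RPKM and 34.7, 38.7 and 34.1 RPKM. No cofactor had a counting interval that left out 0 in any pair.

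All 6 prefoldin subunits, which pass unfolded tubulin and actin to the chaperonin, were listed, with 2 higher and 4 lower between BDE-209 and DMSO and all 6 lower between BDE-209 and the control, where the median log2 ratio was -0.13. PFDN5 had 181 RPKM in the control, 183 with DMSO and 175 with BDE-209. VBP1 had 103, 93.8 and 92.9, and PFDN2 had 71.7, 60.7 and 65.6. Of the 18 intervals of these subunits 1 left out 0, that of PFDN6 between DMSO and the control, at 53.2 against 67.2 RPKM (named after its value was seen), beside the 11.6% given above for all transcripts in that pair.

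The tubulin-modifying enzymes add and remove tyrosine, glutamate and acetyl groups, and all 16 were listed. Between BDE-209 and DMSO 9 were higher and 7 lower, with a median log2 ratio of 0.02 and no interval that left out 0. AGBL5, a deglutamylase, had 55.9 RPKM in the control, 60.5 with DMSO and 53.2 with BDE-209. TTLL12 had 57.6, 48.0 and 52.8 RPKM, with an interval below 0 between DMSO and the control. In the same pair TTLL7, a glutamylase named after its value was seen, had an interval above 0, at 5.15 RPKM in the control and 7.57 with DMSO. TTL, the ligase that puts tyrosine back on the alpha tail, had 32.2, 31.7 and 30.4.

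Of the 22 microtubule-associated genes, 10 were higher and 12 lower between BDE-209 and DMSO, with a median log2 ratio of -0.0064, and 1 interval lay above and 1 below 0. These counts were 4 and 2 between DMSO and the control and 4 and 3 between BDE-209 and the control. Of all transcripts with a mean of at least 10 RPKM, 7.32%, 11.6% and 12.5% had an interval that left out 0 in these pairs. That share was not matched to the list in depth, and some of the 22 genes lie below that mean. TPX2, a spindle assembly factor, had 126 RPKM in the control, 131 with DMSO and 128 with BDE-209. CKAP5, a microtubule polymerase, had 106, 116 and 116, and MAPRE1, a plus-end binding protein, had 97.3, 88.0 and 87.1. Both had intervals that left out 0 against the control, CKAP5 above and MAPRE1 below, in both DMSO-containing samples. A limit applies to genes with several listed transcripts. The median of the highest mean level of a gene was 6.82 RPKM for genes with 1 listed coding transcript, 6.75 with 2, 1.15 with 3 and 0.773 with 4 or more, and what part the handling of reads shared by isoforms has in this was not tested.

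**Figure D5:**
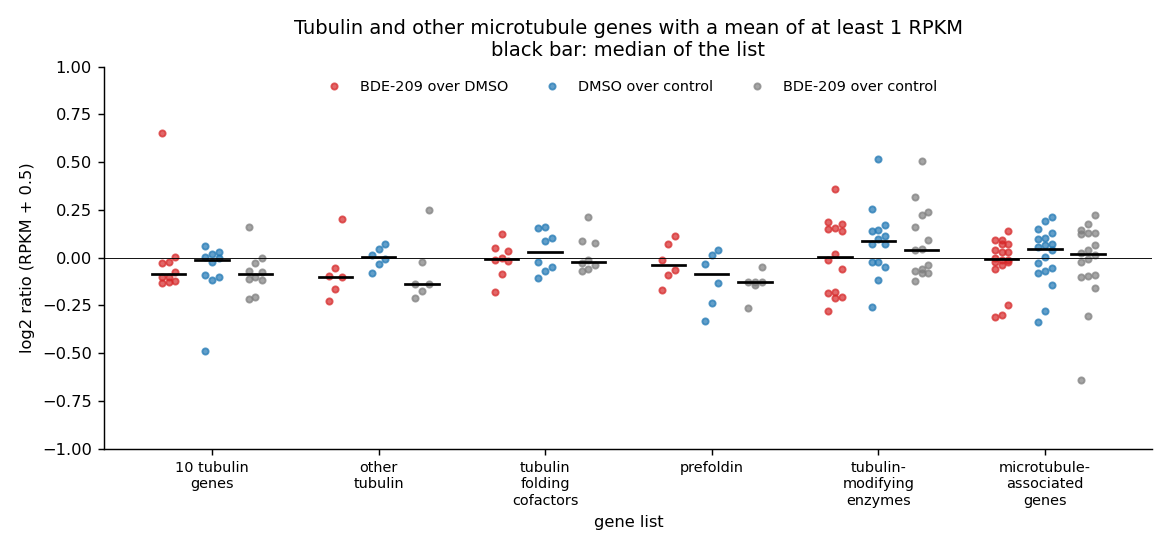
Log2 ratio (0.5 RPKM added) of the 10 tubulin genes and of the genes of 5 further lists with a mean of at least 1 RPKM, for BDE-209 over DMSO, DMSO over control and BDE-209 over control, each point being 1 gene and each black bar the median. The tubulin genes have medians of -0.09, -0.01 and -0.09, and no point reaches a 2-fold change.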

How the data were processed

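RNA of HEK293T cells was sequenced by the study as single-end reads of 49 bases. The authors aligned the reads to hg19 with SOAPaligner and used the uniquely mapped ones. Each sample has 1 list of RPKM by RefSeq transcript, as deposited. Handling of reads shared by isoforms is not given in the sources used here. Transcripts absent from a list were set to 0 RPKM.

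Samples were grouped by their labels. Library totals were recovered as the number at which the inverse RPKM of transcripts with the same reads in all samples is a whole length, scored by a cosine over 312 transcripts (0.486 at the best total, 0.157 at the next). Reads are the smallest whole numbers that fit all 3 values of a transcript, for the tubulin genes at a length that holds the reading frame, and are lower bounds. As an alternative, ratios were scaled to the uniquely mapped reads that the study tabulates, called the tabulated totals. At the recovered totals 1 read on 1 kb is worth 0.206 RPKM in the control, 0.209 with DMSO and 0.214 with BDE-209. These steps were also run on simulated Poisson reads at the recovered lengths. That run cannot show which of several fitting lengths is right, and it holds no difference between cultures.

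Intervals are at 95% and cover counting error only: Clopper-Pearson for a log2 ratio, exact Poisson for a level, and a normal interval on the log scale for sums, shares and ratios of sums. Log2 ratios of genes are given without a pseudocount, while medians and fold counts used 0.5 RPKM added. No differential test was run. The study's simulation-based NOISeq call was left out because it rests on simulated samples, and its 2-fold limit was kept. The 10 genes, the lists and the rules were chosen with earlier results of these data known. From each list the 3 genes of highest mean RPKM are named, with any gene past a 2-fold change on at least 10 reads.

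Windows of 49 bases were matched exactly, on both strands, to GRCh37 with GENCODE 44 models lifted to that build, and coordinates and sequences are from these. Some of the sequence examined is not reported here. Gene names of transcripts came from RefSeq, which matched 22230 of 22811 coding identifiers. The tools were scipy 1.17.1 and numba 0.67.0 for intervals and reads, matplotlib 3.10.9 for plots, and numpy 2.4.6 and pandas 2.3.3 under Python 3.11.15. Alternatives covered the pseudocount, the fold, the scaling, the reads, the transcripts summed and a minimum level.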

Additional observations from a re-analysis of the deposited data

How the results depend on the processing

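With 1 sample per condition no replicate could be left out, and depth limits TUBA4A and TUBB3 most. No paired analysis was possible because each group had 1 sample. Of 150 log2 ratios of tubulin genes under other pseudocounts and scalings, 149 stayed within their counting intervals, and those of the alpha and beta sums stayed within theirs under the median-of-ratios and upper-quartile scalings. The factors of these 2 scalings were 0.994 to 1.0045 and most genes lie far above the pseudocounts, so these settings could move the ratios little. Calls of single genes did change at the tabulated totals. Scaled to the tabulated totals of uniquely mapped reads, TUBA1B was at 0.07 between DMSO and the control, the interval left out 0 for 4 genes between BDE-209 and DMSO, and the alpha and beta sums were at -0.143 and -0.0694 between BDE-209 and DMSO and at 0.0554 and 0.0229 between DMSO and the control. The counts of genes lower stayed within 1.5 times under all scalings, as did the counts with an interval that leaves out 0 under the median-of-ratios factor and at the annotated lengths. Of the 10 tubulin genes, 1 passed a fold of 1.5 and 1 a fold of 1.2 between BDE-209 and DMSO, and 1 a fold of 1.2 between DMSO and the control, each time TUBA4A. Of the other microtubule genes 7, 6 and 8 passed a fold of 1.2 in the 3 pairs (BDE-209 and DMSO, DMSO and control, BDE-209 and control). The share of all transcripts past a 2-fold change was 0.0372%, 0.0868% and 0.0620% at a mean of at least 10 RPKM. The ratio of alpha to beta was 1.62 in the control, 1.66 with DMSO and 1.57 with BDE-209 in lower-bound reads not divided by length. Lengths of 2510 bases for TUBB and 3162 for TUBA1C also fit the values. In the control these give 13816 and 12570 reads in place of 8163 and 6285, so the ratio in reads is not set. Over all 9 alpha and 10 beta transcripts listed, the RPKM ratio of alpha to beta was 1.43 in the control, 1.47 with DMSO and 1.40 with BDE-209. Per singly placed window it was 2.72, 2.77 and 2.64, and 2.44, 2.49 and 2.38 over whole annotated transcripts. These window measures, the tabulated totals and the reads at the annotated length were chosen after seeing the data.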
